A study of Mus musculus with 2 samples.

Results

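The serpin family was followed in liver RNA from HFD-fed C57BL/6 mice. Serpins were taken as the genes whose symbol begins with Serpin and a clade letter from a to i followed by a digit, and the transcripts of each symbol were summed. This gave 66 genes with 157 transcripts, out of 45777 genes with 129299 transcripts in the deposited table. One liver library came from mice that overexpressed GFP from an adeno-associated virus (AAV-GFP, the control) and the other from mice that overexpressed the long noncoding RNA *Wee1-AS* (AAV-*Wee1-AS*), so both groups shared the strain, the HFD and a viral injection behind the eye. Per the methods of the study, the *Wee1-AS* vector was an AAV9 carrying the CMV promoter, which is not restricted to hepatocytes. Age and sex of these mice are not given in the labels, and nothing in them says that livers were pooled. *Xist* was at 0 in both libraries, and all 4 Y-linked genes listed were detected in both and higher with AAV-*Wee1-AS*, by log2 ratios of 1.76 to 2.84 (2 of 4 above 2-fold after removal of the GC and length trends described further on). There was 1 library per group, so no difference has a replicate check and no p-value was computed. The text compares these libraries and not the treatments. GEO's design text mentions 4 livers.

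Serpins are named for the inhibition of serine proteases. An inhibitory serpin offers an exposed reactive center loop as bait, and when a protease cuts it the loop folds into the body of the serpin and traps the protease in a covalent complex. The family also has members that inhibit nothing, such as hormone carriers and a collagen chaperone. Hepatocytes are the main source of the serpins of blood plasma, among them the inhibitors of leukocyte elastase, of blood clotting, of clot lysis and of complement. Clade A holds most of these secreted members, while clade B members stay mostly inside cells. In a bulk liver library, fewer cells of a type and less RNA per cell cannot be told apart.

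Serpins made up nearly the same part of the RNA in both livers. They took 2318573 of 55466182 estimated counts with AAV-GFP, or 4.18% (95% Wilson interval, 4.17 to 4.19). With AAV-*Wee1-AS* they took 2014915 of 48079335, or 4.19% (4.19 to 4.20). These intervals cover counting error only, and PCR copies are not independent molecules. Of the 66 genes, 34 had at least 10 counts in at least 1 library and were compared, as were 15857 genes of the whole table. A further 8 serpins had between 1 and 9 counts, and 24 were at 0 in both libraries, where a count of 0 allows up to 0.0541 CPM (counts scaled to the library total) with AAV-GFP and 0.0624 with AAV-*Wee1-AS*. Clade A contributed 20 of its 27 genes, clade B 5 of its 28 and clades C to I together 9 of their 11.

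Levels differed widely between members on the FPKM scale (fragments per kilobase, corrected for library size). *Serpina1b*, *Serpina1c*, *Serpina1a* and *Serpina3k* led the family, at positions 11, 16, 22 and 25 among all genes by mean FPKM. *Serpina1d* and *Serpina1e* came next, at positions 32 and 46. Outside these clusters, *Serpinc1*, *Serping1* and *Serpinf1* were highest, at positions 86, 150 and 165. The weakest of the compared members were *Serpina9* and *Serpini1*, with at most 12 counts in a library.

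**Figure D1:**
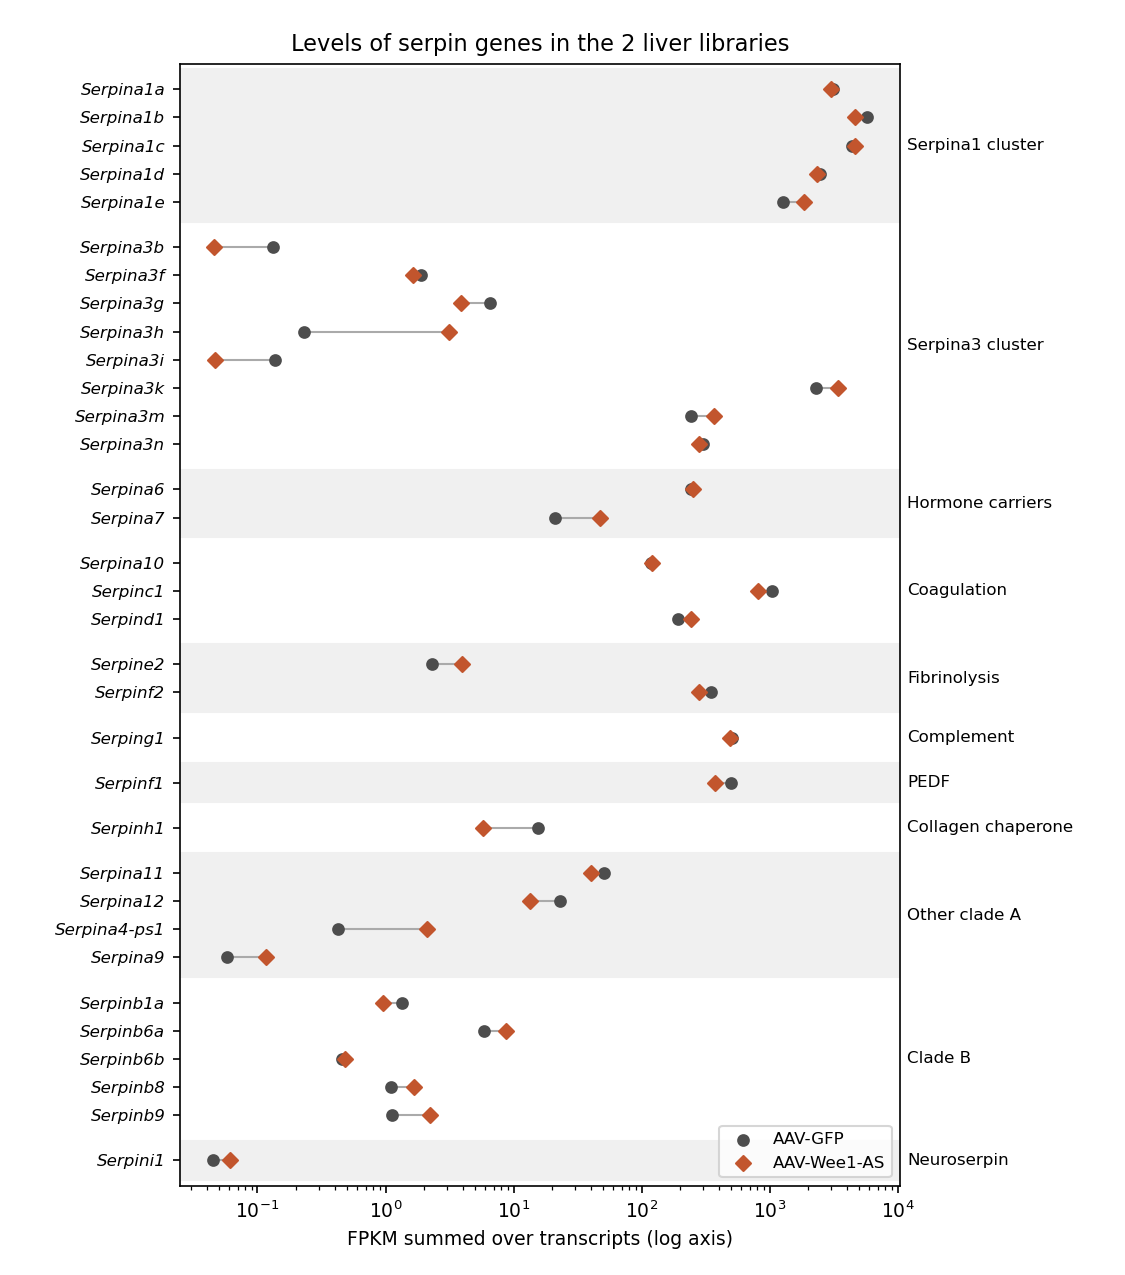
Level of the compared serpin genes reported here in the AAV-GFP library (circles) and the AAV-*Wee1-AS* library (diamonds), in FPKM summed over transcripts on a log axis, grouped by role. Each point is 1 library, so there is no error bar. The expressed Serpina1 genes and *Serpina3k* sit highest, while *Serpina3h* and *Serpina4-ps1* have the widest gaps between the libraries.

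For each gene, the AAV-*Wee1-AS* level was divided by the AAV-GFP level, as a log2 ratio of counts scaled by TMM (a factor per library that assumes most genes do not differ), with a prior count of 2. A positive ratio means a higher level with AAV-*Wee1-AS*. Over the 34 serpins the median log2 ratio was 0.02, with a highest value of 3.70, beside -0.02 over all genes. Of the serpins, 17 of 34 lay above 0, as did 49.5% of all genes. Past 2-fold in either direction were 8 serpins (23.5%), and 31.0% of all compared genes passed the same limit. The 4 higher serpins were *Serpina3h*, *Serpina4-ps1*, *Serpina7* and *Serpinb9*, or 11.8%, beside 22.2% of all genes. On the lower side were 4, among them *Serpinh1*, *Serpina3b* and *Serpina3i*, again 11.8%, beside 8.71% of all genes. *Serpina3b* and *Serpina3i* had at most 21 counts in a library.

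For 5 of these 8 serpins, or 14.7% of the 34, the whole counting interval was past 2-fold. *Serpina3h*, *Serpina4-ps1* and *Serpina7* were so above (8.82% of the 34), and *Serpinh1* was among the 2 below (5.88%). Over all genes, 19.8% had an interval wholly past 2-fold, 16.0% above and 3.72% below. The other 3, *Serpinb9*, *Serpina3b* and *Serpina3i*, had intervals that reached back inside the limit.

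**Figure D2:**
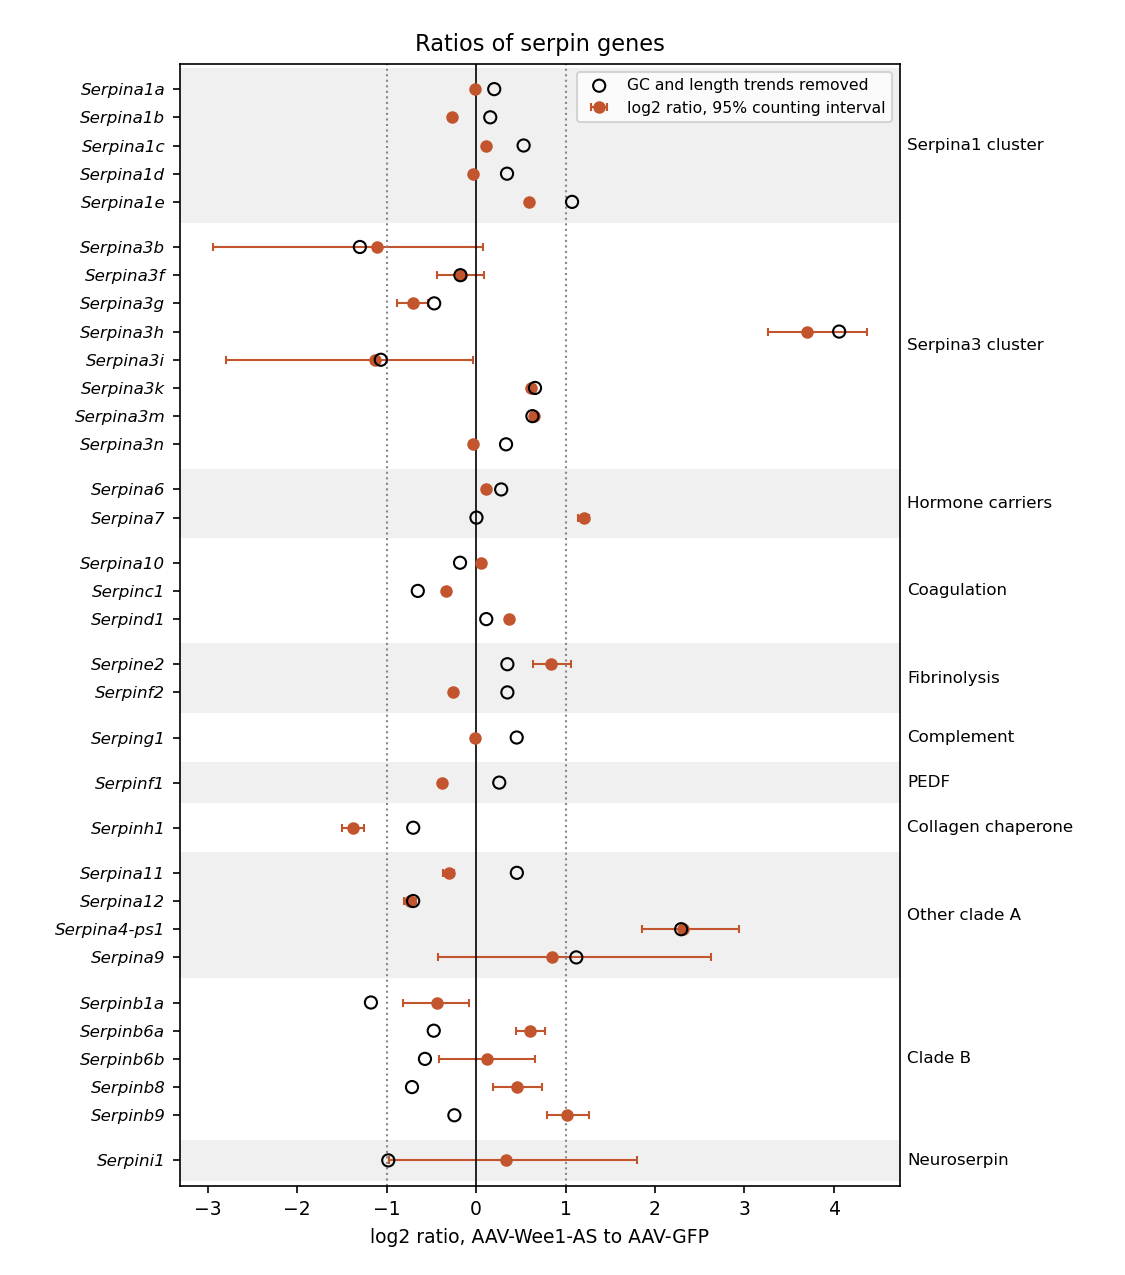
Log2 ratio (AAV-*Wee1-AS* over AAV-GFP) of the compared serpins reported here (filled points) with its 95% counting interval, and the ratio after the removal of trends over all genes with GC content and transcript length (open points). Dotted lines mark 2-fold. *Serpina3h* lies farthest from 0 in both versions, whereas *Serpina7* moves from 1.20 to about 0.

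Across all genes, the ratio went with the base composition of the transcript, and the serpins have to be read beside that. The Spearman correlation of the log2 ratio with GC content was -0.673 over 14995 genes with a GC value. When the genes were split into 10 groups of equal size by GC content, the lowest group (31.0% to 41.6%) had a median log2 ratio of 1.43, and 65.4% of it was above 2-fold. Over the 34 serpins the same correlation was -0.404, given as a description since genes share the 2 libraries. A trend with GC content and a trend with transcript length were therefore also removed by a smooth fit over all genes, and the value after removal is called adjusted here. The adjustment moved 11 serpins by at least 0.5 on the log2 scale and changed the sign of 14. After it, 8 serpins were past 2-fold (23.5%), beside 14.9% of all genes. Among these, *Serpina9*, *Serpina3b* and *Serpina3i* had at most 21 counts in a library, and adjusted values carry no interval. *Serpina3h*, *Serpina4-ps1*, *Serpina1e* and *Serpina9* were then above (11.8%, beside 6.68%), and 4 were below, among them *Serpinb1a*, *Serpina3b* and *Serpina3i* (11.8%, beside 8.18%). Whether base composition itself accounts for any single ratio was not tested.

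**Figure D3:**
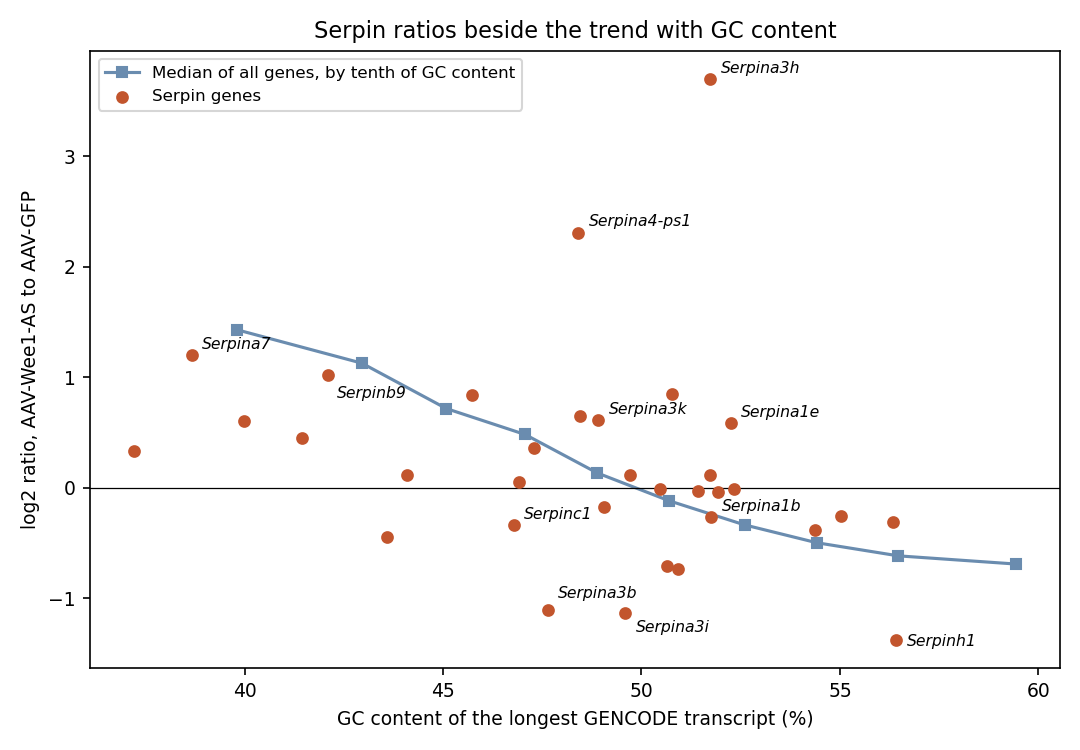
Log2 ratio (AAV-*Wee1-AS* over AAV-GFP) against GC content (percent) of the longest GENCODE transcript for the compared serpins reported here (circles), with the median log2 ratio of all genes in 10 groups of equal size ordered by GC content (squares, placed at the median GC content of the group). *Serpina7* and *Serpinb9* lie near or below the line of all genes at low GC content, while *Serpina3h* and *Serpina4-ps1* lie far from it.

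*Serpina1* genes encode alpha-1-antitrypsin, the plasma inhibitor of neutrophil elastase, which the mouse carries as several copies. The cluster was the largest block of serpin RNA and hardly differed in sum between the libraries. Its 6 symbols held 1627545 counts with AAV-GFP and 1350290 with AAV-*Wee1-AS*, or 2.93% and 2.81% of each library. The log2 ratio of the sums was -0.0058 (95% counting interval, -0.0091 to -0.0025), and 0.38 after adjustment. On the FPKM scale the sums were 17101 and 16487.

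Within the cluster, the copies did not keep the same proportions. *Serpina1b* was the main copy with AAV-GFP, at 530926 counts (5788 FPKM), and had 368387 counts (4659 FPKM) with AAV-*Wee1-AS*, a log2 ratio of -0.26 (-0.27 to -0.26). *Serpina1e*, the least abundant of the expressed copies, went the other way, with 112798 counts (1275 FPKM) and 141296 counts (1853 FPKM) and a log2 ratio of 0.59 (0.58 to 0.60). *Serpina1c* had 404902 and 364903 counts and a log2 ratio of 0.11 (0.11 to 0.12). *Serpina1b* and *Serpina1c* thus stood nearly level with AAV-*Wee1-AS*, at 4659 and 4618 FPKM. *Serpina1a* had 348869 and 288199 counts (log2 ratio -0.012, interval -0.019 to -0.0048). *Serpina1d* had 230050 and 187505 counts (-0.03, interval -0.04 to -0.02). *Serpina1f* was at 0 in both libraries.

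Expressed as shares of the cluster's counts, *Serpina1b* held 32.6% with AAV-GFP and 27.3% with AAV-*Wee1-AS*. *Serpina1e* held 6.93% and 10.5%, and *Serpina1c* 24.9% and 27.0%. *Serpina1a* (21.4% and 21.3%) and *Serpina1d* (14.1% and 13.9%) held nearly the same shares in both libraries. The copies have nearly the same GC content, from 50.5% to 52.3%, and after adjustment their log2 ratios kept *Serpina1e* highest (1.07) and *Serpina1b* lowest (0.16), with *Serpina1a*, *Serpina1d* and *Serpina1c* at 0.20, 0.35 and 0.53.

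**Figure D4:**
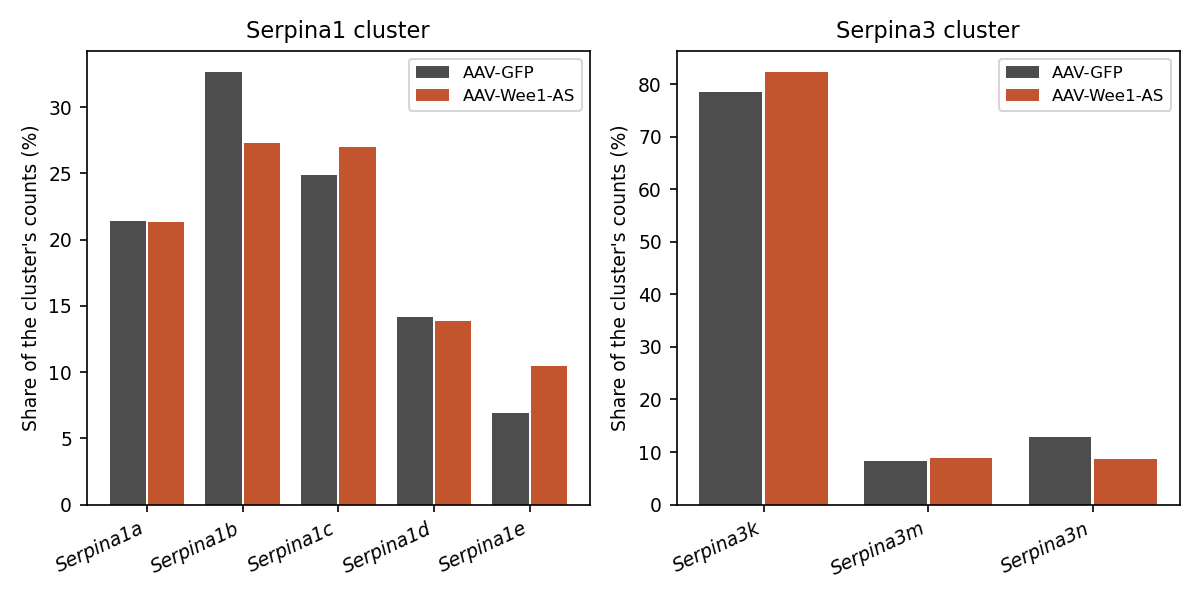
Share of the cluster's estimated counts (percent) held by each copy of the Serpina1 cluster (left) and by the 3 main copies of the Serpina3 cluster (right), in the AAV-GFP library (dark bars) and the AAV-*Wee1-AS* library (orange bars); each bar is 1 library. The share of *Serpina1b* is smaller and that of *Serpina1e* larger with AAV-*Wee1-AS*, and *Serpina3n* has a smaller share beside *Serpina3k*.

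These shares depend on how reads were divided between copies that are almost the same. Between any pair of the 5 expressed copies, coding sequences of 1239 bases were 96.3% to 98.5% identical, with *Serpina1a* and *Serpina1c* closest at 19 differing bases. In the GENCODE transcripts, 61.0% of the 100-base windows of *Serpina1a* and 58.5% of those of *Serpina1c* occur unchanged in another gene, while the figure was 29.3% for *Serpina1d*, 26.4% for *Serpina1b* and 18.2% for *Serpina1e*. Reads of *Serpina1a* and *Serpina1c* are therefore the hardest to assign and those of *Serpina1e* the easiest. The part of read assignment in the shifted shares was not tested.

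The stretch with the most differences between copies lies in the last coding exon, which in serpins of this clade encodes the reactive center loop. Of 1239 coding positions, 86 vary among the 5 copies, and 18 of them fall in this stretch of 60 bases from coding base 1101 to 1160 (30.0% of positions, beside 5.77% elsewhere). This stretch is shown because it is where the copies differ most. All lie in exon 5 of 5 on the minus strand of GRCm38, from GENCODE, at chr12:103853757-103853816 for *Serpina1a*, chr12:103728324-103728383 for *Serpina1b*, chr12:103895094-103895153 for *Serpina1c*, chr12:103763762-103763821 for *Serpina1d* and chr12:103947100-103947159 for *Serpina1e*. Capitals mark positions that differ among the copies.
Serpina1a: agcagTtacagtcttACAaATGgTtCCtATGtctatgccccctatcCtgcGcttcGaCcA
Serpina1b: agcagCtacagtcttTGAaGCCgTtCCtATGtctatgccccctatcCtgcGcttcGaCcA
Serpina1c: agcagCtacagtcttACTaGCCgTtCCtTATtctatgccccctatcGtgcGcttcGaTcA
Serpina1d: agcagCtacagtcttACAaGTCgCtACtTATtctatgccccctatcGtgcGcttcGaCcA
Serpina1e: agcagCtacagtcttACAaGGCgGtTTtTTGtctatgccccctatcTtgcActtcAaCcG

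The Serpina3 cluster corresponds to the single human gene for antichymotrypsin and has diversified in the mouse. In sum it was higher with AAV-*Wee1-AS*. Its 12 symbols held 313508 counts with AAV-GFP and 381523 with AAV-*Wee1-AS*, a log2 ratio of 0.55 (95% counting interval, 0.54 to 0.55), or 1.46-fold. The adjusted value was 0.63, and the sums in FPKM were 2868 and 4087.

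This difference was carried by *Serpina3k*, the kallikrein-binding serpin of mouse plasma. *Serpina3k* had 246144 counts (2315 FPKM) with AAV-GFP and 313902 counts (3425 FPKM) with AAV-*Wee1-AS*, a log2 ratio of 0.61 (0.61 to 0.62). Its closest relative *Serpina3m* had a similar ratio, with 25855 and 33847 counts (244 and 371 FPKM) and a log2 ratio of 0.65 (0.63 to 0.68). *Serpina3n*, an acute phase inhibitor that can block granzyme B, did not share this pattern. It had 40353 and 32780 counts (299.8 and 283 FPKM), with a log2 ratio of -0.04 (-0.06 to -0.02). Of the cluster, *Serpina3k* held 78.5% with AAV-GFP and 82.3% with AAV-*Wee1-AS*, *Serpina3m* 8.25% and 8.87%, and *Serpina3n* 12.9% and 8.59%. After adjustment the log2 ratios were 0.66, 0.63 and 0.34.

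These 3 genes share less sequence than the *Serpina1* copies do. *Serpina3k* and *Serpina3m* are 91.7% identical over their coding bases, and *Serpina3n* is 82.9% identical to the former and 85.2% to the latter. Only 4.85% of the 100-base windows of *Serpina3k*, 6.09% of *Serpina3m* and 0.204% of *Serpina3n* occur in another gene. Of 1260 aligned positions 255 vary among the 3, and the stretch of 60 bases with the most differences, with 26 (43.3%, beside 19.1% elsewhere), again lies in exon 5 of 5. It is shown for the same reason as above, on the plus strand of GRCm38, at chr12:104345267-104345326 for *Serpina3k*, chr12:104393767-104393826 for *Serpina3m* and chr12:104413446-104413505 for *Serpina3n*, with differing positions in capitals.
Serpina3k: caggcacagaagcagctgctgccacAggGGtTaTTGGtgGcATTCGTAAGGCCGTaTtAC
Serpina3m: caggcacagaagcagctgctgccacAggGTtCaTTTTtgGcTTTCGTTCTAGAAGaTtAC
Serpina3n: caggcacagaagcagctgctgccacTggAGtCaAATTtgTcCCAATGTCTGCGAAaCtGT

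Minor copies of the cluster differed in both directions. *Serpina3h*, which the table lists as a noncoding RNA (chr12:104247896-104254405), had 31 counts (0.230 FPKM) with AAV-GFP and 358 (3.14 FPKM) with AAV-*Wee1-AS*. Its log2 ratio of 3.70 (3.26 to 4.37), or 13.0-fold, was the highest of the family, and it was 4.06 after adjustment. Its neighbor *Serpina3g*, a lymphoid inhibitor of cysteine cathepsins, was lower, with 801 and 408 counts (log2 ratio -0.71, interval -0.89 to -0.54). Of the windows of *Serpina3h*, 4.21% occur in another gene, most often *Serpina3g*. *Serpina3f* had 276 and 204 counts, and the interval of its log2 ratio (-0.44 to 0.09) included 0. *Serpina3b* (18 and 6 counts, log2 ratio -1.10, interval -2.94 to 0.07) and *Serpina3i* (21 and 7 counts, -1.13, interval -2.80 to -0.03) passed 2-fold on few counts. *Serpina3c* (8 and 9 counts) and *Serpina3j* (1 and 2) were under the count limit, and *Serpina3a* and *Serpina3e-ps* were at 0.

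Both hormone carriers were expressed, and neither inhibits a protease. *Serpina6*, corticosteroid-binding globulin, had 25116 counts (242 FPKM) with AAV-GFP and 22673 (254 FPKM) with AAV-*Wee1-AS*, a log2 ratio of 0.12 (0.09 to 0.14). *Serpina7*, thyroxine-binding globulin, is the 1 clade A gene outside chromosome 12, at chrX:139079249-139085270. It had 3235 counts (20.96 FPKM) and 6199 counts (47.2 FPKM), a log2 ratio of 1.20 (1.14 to 1.26), or 2.30-fold. *Serpina7* has a GC content of 38.7%, among the lowest of the family, and its adjusted log2 ratio was 0.0046. The difference was uneven over the annotated transcripts. NM_177920 had 1413 and 4182 counts, whereas XM_006528577 had 974 and 1015 and XM_006528578 had 746 and 781. The least abundant, XM_006528579, had 102 and 221 (log2 ratio 1.36). The estimated counts divide reads between overlapping transcripts, so these isoform values carry more error than the gene's sum.

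Among the inhibitors of clotting, *Serpinc1*, antithrombin, which blocks thrombin and factor Xa, was the most abundant and somewhat lower with AAV-*Wee1-AS*. It had 138933 counts (1052 FPKM) and 91778 counts (814 FPKM), a log2 ratio of -0.33 (-0.35 to -0.32), and -0.65 after adjustment. *Serpind1*, heparin cofactor II, which blocks thrombin alone, had 26708 and 28657 counts (194 and 241 FPKM), a log2 ratio of 0.37 (0.34 to 0.39), and 0.11 after adjustment. It lies within *Pi4ka* on the opposite strand, which had 2529 and 2289 counts, and the strand setting of the counting is not given in the sources used here. *Serpina10*, the protein Z-dependent inhibitor of factor Xa, had 12292 and 10646 counts (119 and 120 FPKM). Its log2 ratio was 0.06 (0.02 to 0.09), and -0.18 after adjustment. None of the 3 passed 2-fold. The adjusted values of *Serpinc1* and *Serpina10* rest on base composition from GENCODE, where the matched transcripts are longer than the deposited ones. For NM_080844 of *Serpinc1* the lengths are 4970 and 2162 bases, and for NM_144834 of *Serpina10* 3498 and 1609. For NM_008223 of *Serpind1* they are 2191 and 2190. How far this moved the adjusted values was not tested. *Serpina5*, the protein C inhibitor, had 0 and 3 counts.

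The proteases these serpins act on were listed as 8 coagulation and contact genes. Their median log2 ratio was 0.03, with 3 above 2-fold and 0 below, beside 22.2% and 8.71% of all genes. *F2*, prothrombin, the target of antithrombin, had 132922 and 84903 counts (log2 ratio -0.38, adjusted 0.13). *F9* (2546 and 7949 counts, 1.91), *Klkb1* (5820 and 11363, 1.23) and *F11* (1229 and 2344, 1.19) were the higher ones. Their GC contents are 39.0%, 43.2% and 46.5%, in that order. After adjustment 0 of the 8 were past 2-fold, beside 14.9% of all genes, and the median was 0.27.

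Inhibitors of clot lysis given here differed in both directions before adjustment, but not after it. *Serpine2*, protease nexin 1, an inhibitor of thrombin and of plasminogen activators, was higher with AAV-*Wee1-AS*, with 305 and 456 counts (2.30 and 3.98 FPKM) and a log2 ratio of 0.84 (0.63 to 1.06), or 0.35 after adjustment. *Serpinf2*, alpha-2-antiplasmin, the plasma inhibitor of plasmin, had 49110 and 34259 counts (348 and 282 FPKM), a log2 ratio of -0.26 (-0.28 to -0.24), and 0.35 after adjustment. *Serpinb2*, an inhibitor of uPA, was at 0 in both libraries.

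Activators of plasminogen, which *Serpine2* can block, were lower with AAV-*Wee1-AS*. *Plat*, which encodes tPA, had 107 and 34 counts (log2 ratio -1.34, interval -1.99 to -0.82). *Plau*, which encodes uPA, had 199 and 79 counts (-1.05, interval -1.46 to -0.69), and its receptor *Plaur* had 181 and 21 (-2.74, interval -3.57 to -2.19). These 3 are expressed at low levels in liver, and each was past 2-fold before and after adjustment. *Plg*, plasminogen itself, made by hepatocytes, had 129162 and 111293 counts (0.05, adjusted 0.37). *Vtn*, vitronectin, an adhesive plasma protein, had 184269 and 122323 (-0.33, adjusted 0.36). Over these 5 genes the median was -1.05, and 3 were below 0.5-fold before and after adjustment, beside 8.71% and 8.18% of all genes.

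*Serpinh1*, or HSP47, is a serpin of the endoplasmic reticulum that inhibits no protease and folds procollagen. It had 2253 counts (15.5 FPKM) with AAV-GFP and 723 (5.79 FPKM) with AAV-*Wee1-AS*, a log2 ratio of -1.37 (-1.50 to -1.25), or 2.59-fold lower. All 3 of its transcripts with at least 100 counts were lower, with 1707 and 614 counts for NM_001111044, 339 and 70 for NM_001111043 and 168 and 33 for NM_009825. *Serpinh1* has a GC content of 56.4%, and its adjusted log2 ratio was -0.70, inside 2-fold. Its clients, the 8 collagen genes listed, were all below 0.5-fold with intervals wholly below it, with log2 ratios from -2.32 (*Col1a1*, 3620 and 603 counts) to -1.25 (*Col6a1*, 1721 and 600). Their median was -1.62, and -1.59 after adjustment, when 7 of 8 were still below 0.5-fold. Over all genes, 3.72% had an interval wholly below 0.5-fold, and 8.18% were below it after adjustment.

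HSP47 is made mostly by cells other than hepatocytes, so markers of other cells are given beside it. Over all genes, 22.2% were above 2-fold and 8.71% below 0.5-fold, or 6.68% and 8.18% after adjustment. Of 7 stellate cell and fibroblast markers, 3 were below 0.5-fold and 1 above 2-fold, and their summed level, in CPM over library totals scaled by TMM as for all marker lists here, was 406 with AAV-GFP and 265 with AAV-*Wee1-AS*. The 3 lower ones were *Pdgfrb*, *Col1a1* and *Col3a1*, the latter pair also in the collagen list, while *Lrat*, a marker of quiescent stellate cells, had 267 and 617 counts (log2 ratio 1.46, adjusted 0.03) and *Dcn* had 4590 and 4823 (0.33, adjusted -0.81). After adjustment 3 of the 7 were below 0.5-fold and 0 above 2-fold, with a median of -0.92. The 3 were not the same, as *Pdgfrb* (-0.92) was then inside 2-fold and *Lum* (-1.27) below 0.5-fold. All 4 mesothelial markers were below 0.5-fold, summing to 4.97 and 1.51 TMM-scaled CPM, with *Wt1* at 35 and 0 counts. Of these 4, 2 had an interval wholly below 0.5-fold, and 3 were below it after adjustment. The 4 platelet markers were inside 2-fold (4.65 and 2.69 TMM-scaled CPM), as were the 6 endothelial ones (255 and 233). After adjustment 1 platelet marker, *Ppbp* (21 and 11 counts), was below 0.5-fold, at -1.44. Of the 6 macrophage markers (312 and 269 TMM-scaled CPM), 2 were above 2-fold and 0 below, *Marco* at 1.60 and *Timd4* at 1.40. After adjustment 1 of the 6 was above. The 4 compared cholangiocyte markers were inside 2-fold before and after adjustment. Of the 4 B cell markers, 1 was above 2-fold (*Ms4a1*, 0 and 23 counts) and 0 below. The part of these cells in the ratio of *Serpinh1* was not tested.

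**Figure D5:**
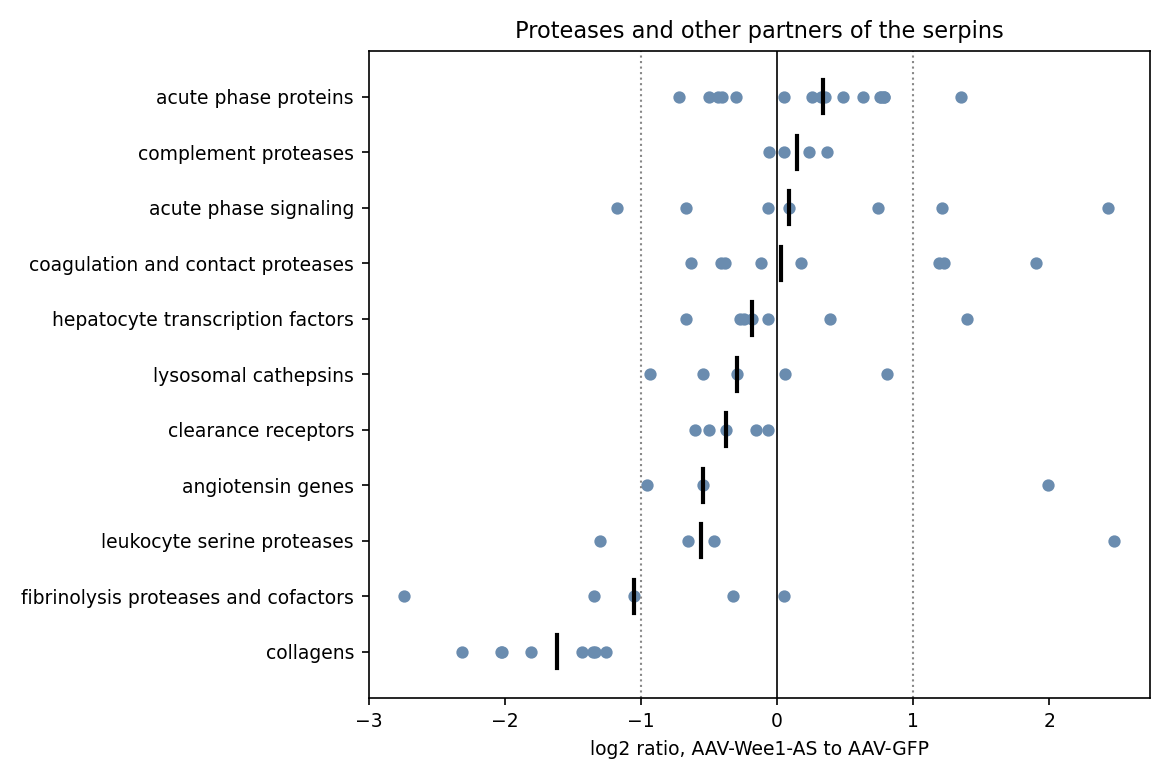
Log2 ratio (AAV-*Wee1-AS* over AAV-GFP) of genes listed as proteases, clients, receptors and regulators of serpins; each point is 1 gene, black bars are medians of a list and dotted lines mark 2-fold. All 8 collagens lie below -1, while the clearance receptors and complement proteases stay inside 2-fold.

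*Serping1*, the C1 inhibitor, which blocks the first proteases of complement and plasma kallikrein, was level. It had 59363 counts (507 FPKM) with AAV-GFP and 49105 (486 FPKM) with AAV-*Wee1-AS*, and the interval of its log2 ratio (-0.03 to 0.0072) included 0. The 4 complement proteases listed had log2 ratios from -0.06 to 0.37. *Serpinf1*, PEDF, a secreted serpin without inhibitory function that limits vessel growth, had 48158 and 30824 counts (501 and 372 FPKM), a log2 ratio of -0.38 (-0.40 to -0.36). After adjustment *Serping1* was at 0.45 and *Serpinf1* at 0.26. *Agt*, angiotensinogen, is a serpin by structure whose symbol lies outside the naming rule, and it had 59834 and 34155 counts (log2 ratio -0.55, adjusted 0.18).

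Other genes of clade A were weaker on the FPKM scale than *Serpina3k*, *Serpina3m*, *Serpina3n* and the expressed *Serpina1* copies. *Serpina12* encodes vaspin, an adipokine that inhibits kallikrein 7 and has been linked to insulin sensitivity. It had 5494 counts (23.1 FPKM) with AAV-GFP and 2746 (13.4 FPKM) with AAV-*Wee1-AS*, a log2 ratio of -0.74 (-0.80 to -0.67), and -0.70 after adjustment. *Serpina11* had 4801 and 3234 counts (log2 ratio -0.31, interval -0.37 to -0.24, adjusted 0.46). Of its 100-base windows, 41.9% also occur in *Gm28577*, a GENCODE transcript on the same strand, but no deposited gene carries that symbol. *Serpina4-ps1*, a pseudogene at chr12:104077959-104086920, had 37 counts (0.424 FPKM) and 160 (2.12 FPKM), a log2 ratio of 2.31 (1.85 to 2.93). It stayed at 2.29 after adjustment. Both serpins with the highest ratios, *Serpina3h* and *Serpina4-ps1*, are thus listed without a protein, and each was under 4 FPKM in both libraries. *Serpina9* had 7 and 12 counts and an interval (-0.42 to 2.63) that included 0, and *Serpina16* was at 0.

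Clade B, the intracellular serpins, was scarce in liver, with 1255 counts over 28 genes with AAV-GFP and 1534 with AAV-*Wee1-AS*. *Serpinb6a*, an inhibitor of cathepsin G, was the most abundant, at 558 counts (5.88 FPKM) and 707 (8.75 FPKM), a log2 ratio of 0.60 (0.44 to 0.77). It overlaps *Nqo2* (2870 and 4458 counts) and *Ripk1* (634 and 1429) on the opposite strand. *Serpinb9*, the inhibitor of granzyme B that shields cells from cytotoxic lymphocytes, had 246 and 417 counts (1.12 and 2.21 FPKM) and a log2 ratio of 1.02 (0.79 to 1.26). It lay just past 2-fold, and *Serpina9* (0.85) and *Serpine2* (0.84) lay just inside. *Serpinb8*, an inhibitor of furin, had 212 and 243 counts (log2 ratio 0.46, interval 0.19 to 0.73). *Serpinb1a*, an inhibitor of neutrophil elastase and cathepsin G, was the 1 compared clade B gene on the lower side. It had 167 and 102 counts (log2 ratio -0.44, interval -0.82 to -0.08). *Serpinb6b* had 64 and 58 counts (log2 ratio 0.12), and its interval (-0.42 to 0.66) included 0.

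All 5 of these genes have a GC content between 40.0% and 44.1%, and their adjusted log2 ratios were all below 0, at -0.47 for *Serpinb6a*, -0.24 for *Serpinb9*, -0.72 for *Serpinb8*, -1.17 for *Serpinb1a* and -0.57 for *Serpinb6b*. The direction of 4 of them therefore depended on the adjustment, and the interval of *Serpinb6b* left its direction open already before it. Of the other clade B genes, *Serpinb12* (6 and 0 counts), *Serpinb1b* (0 and 5), *Serpinb10* (0 and 2) and *Serpinb7* (2 and 0) had counts at all. In the neuroserpin clade, *Serpini1*, an inhibitor of tPA in the brain, had 10 and 11 counts, and *Serpini2* was at 0. *Serpine3* had 2 and 0 counts.

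Leukocyte proteases, the targets of alpha-1-antitrypsin and of several clade B serpins, had low counts. *Elane*, neutrophil elastase, had 15 and 4 counts, *Gzma* had 24 and 14 and *Gzmb* 22 and 11, and *Ctsg*, cathepsin G, was at 0. *Prtn3*, proteinase 3, was higher with AAV-*Wee1-AS*, at 12 and 64 counts (log2 ratio 2.48, interval 1.78 to 3.70, adjusted 3.42). Neutrophil markers summed to 6.70 TMM-scaled CPM with AAV-GFP and 3.84 with AAV-*Wee1-AS*, with 2 of 4 below 0.5-fold and *Ly6g* at 0. The 5 T and NK cell markers summed to 2.79 and 2.31 TMM-scaled CPM, with 1 of 5 below 0.5-fold. Of all genes, 8.71% were below 0.5-fold.

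Plasma serpins share hepatocyte regulation and acute phase control with other secreted proteins, which were listed for comparison. Of 16 acute phase proteins, 1 was above 2-fold (*Saa4*, log2 ratio 1.35) and 0 below, beside 22.2% and 8.71% of all genes. Their median was 0.33, and 0.32 after adjustment. *Serpina3k* lay above this median before and after adjustment (0.61 and 0.66). *Serpina3n* lay below it before (-0.04) and slightly above it after (0.34). Among the 7 genes of acute phase signaling, *Nr3c1*, the glucocorticoid receptor, had 671 and 3025 counts (2.43, adjusted 0.87), *Il6st* 3680 and 7118 (1.21, adjusted 0.55) and *Cebpd* 520 and 191 (-1.17, adjusted -0.86). Of 7 hepatocyte transcription factors, *Onecut1* was above 2-fold (162 and 358 counts, 1.40, adjusted 1.54), and the median was -0.18, or 0.45 after adjustment. The 5 receptors and cofactors that clear serpin-protease complexes and glycoproteins, among them *Lrp1* (58041 and 43333 counts, -0.16), were inside 2-fold with a median of -0.38. The 6 hepatocyte markers had a median of -0.02 and log2 ratios from -0.62 (*Ttr*) to 1.21 (*Cps1*).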

How the data were processed

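RNA of 1 liver library per group was sequenced after a stranded poly-A preparation with paired ends. The authors deposited 1 table of RefSeq transcripts (mm10) with, per library, estimated counts, which are not normalized, and values in FPKM and TPM, beside the transcript length; the counts divide reads between overlapping transcripts and were used as deposited. Nearly every count is its FPKM multiplied by the length, divided by a constant of the library and rounded up, so that a small count can stand for less than 1 read, and counting intervals, which treat these values as reads, are least certain there. Tools listed in the submitters' processing notes, with no role or order, were Trimmomatic 0.38, HISAT2 2.1.0, SAMtools 1.9 and StringTie 2.1.3b. Depth was 55466182 estimated counts (AAV-GFP) and 48079335 (AAV-*Wee1-AS*).

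Transcripts were summed per symbol, and a gene was kept if either library had 10 or more counts. Counts were scaled by TMM (edgeR 4.0.16; factors 1.02 and 0.980) over the whole table, and log2 ratios used a prior count of 2. Intervals of ratios are exact 95% Clopper-Pearson intervals (scipy 1.17.1) and those of library shares Wilson intervals (statsmodels), and both cover counting error only. Trends with GC content (94.6% of genes matched to GENCODE M21) and transcript length were removed by lowess with a span of 0.3 over 5 cycles (statsmodels 0.14.6). Scripts were tested on simulated data. Serpins are given by value or range, in full where past 2-fold, in the Serpina1 and Serpina3 clusters, with a listed role or among the 5 clade B genes with the most counts. One compared member is counted in the totals and not reported here. Members and lists were chosen with earlier results of these data known. The alternatives tried were other scalings, prior counts, units, count filters, transcripts, summed clusters and trend removal.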

Additional observations from a re-analysis of the deposited data

How the results depend on the processing

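No paired analysis was possible because there was 1 library per group, and no library could be left out. The count of serpins past 2-fold, 8 of 34, was 23.5% of them beside 31.0% of all genes. It became 5 with the deposited FPKM or TPM and a pseudocount of 1 (14.7%, beside 8.43% of all genes with FPKM and 12.9% with TPM). The serpins' share was then the larger, as it was with both trends removed. In that last setting *Serpina9*, *Serpina3b* and *Serpina3i*, with at most 21 counts in a library, were among those past 2-fold. The count of serpins past 2-fold was also taken with clusters summed and with transcripts. It was 5 of 23 (21.7%, beside 31.0%) with each cluster summed, and 19 of 60 (31.7%, beside 54.5% of all transcripts) with transcripts in place of genes. The log2 ratio of the Serpina1 cluster, -0.0058, was -0.063 with library totals, -0.031 with DESeq2 size factors, -0.21 with the upper quartile, -0.056 with totals without the 20 most abundant genes, -0.053 with FPKM and -0.028 with TPM, but 0.27 with the trend with length removed and 0.38 with the trends with GC content and length removed, so its direction rests on this choice. The log2 ratio of the Serpina3 cluster, 0.55, was in the same order 0.49, 0.52, 0.34, 0.50, 0.51, 0.54, 0.80 and 0.63. *Serpinb9* was reversed with both trends removed, at -0.24. Over 7 scaling, prior or unit settings, 4 of 34 serpins changed sign in at least 1 (*Serpina10*, *Serpina1c*, *Serpina6* and *Serpinb6b*), and 4 were past 2-fold in all 7, among them *Serpina3h*, *Serpina4-ps1* and *Serpinh1*. *Serpina7* was past it in 6, *Serpina3b* and *Serpina3i* in 5 and *Serpinb9* in 1. The upper quartile moved the median of all genes to -0.22. The cause of these shifts was not tested. At this depth, the counting intervals of *Serpina3b*, *Serpina9* and *Serpini1*, with at most 18 counts in a library, included 0.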
